A study of Mus musculus with 6 samples.

Results

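Small nucleolar RNAs (snoRNAs) were measured in the mouse embryonic stem cell line RW4 on 6 single-colour Affymetrix arrays. They were taken as the genes whose probe sets carried exactly 1 platform annotation symbol starting with Snora or Snord, with the brightest probe set kept per gene, which gave 51 of the 19938 genes on the arrays. Of these, 20 were Snora genes (H/ACA type) and 31 were Snord genes (C/D type). The first group of 2 arrays came from cells given 1 µM 4-hydroxytamoxifen (4OHT), labelled with the ERT2 induction system. The second, also of 2 arrays, came from cells given 1 µM Shld1, labelled with the FKBP induction system. The third came from untreated cells labelled WT, again with 2 arrays. 4OHT binds the estrogen receptor and Shld1 binds a destabilised FKBP domain, and the comparisons set these groups of arrays against each other. All groups were grown on gelatin in medium with serum and leukemia inhibitory factor, and their RNA was isolated on spin columns and treated with DNase. Whether these cells held an ERT2 or FKBP fusion is not in the labels, so agent and any construct cannot be told apart, and no treatment time is stated in them. The labels call the arrays of a group duplicates without naming separate cultures, so every p-value rests on a spread between arrays that may be only technical.

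SnoRNAs are short nuclear RNAs that guide enzymes to ribosomal RNA by base pairing. C/D snoRNAs carry the methyltransferase fibrillarin (Fbl) together with Nop56, Nop58 and Snu13 and guide methylation of the ribose, while H/ACA snoRNAs carry the pseudouridine synthase dyskerin (Dkc1) together with Nop10, Nhp2 and Gar1 and guide the change of uridine to pseudouridine. A few are needed for cleavage of the ribosomal RNA precursor, among them U3, U8 (Snord118), U14 and U17 (Snora73a and Snora73b). In mammals most snoRNAs are cut out of introns after splicing, often from genes of the translation machinery or from noncoding host genes whose spliced RNA has no protein product. Snord118 is known as an exception with its own promoter.

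In the RefSeq gene table, 50 of the 51 lay inside the span of a protein-coding or long noncoding gene, in 40 distinct host genes, and the member without a host was Snord118. Ribosomal protein genes (Rpl and Rps) made up 16 of the hosts and held 21 members, 8 of type H/ACA and 13 of type C/D. Long noncoding RNA genes made up 10 of the hosts and held 13 members. The Snora genes were 61 to 205 nt long with a median of 125 nt, and the Snord genes 45 to 148 nt with a median of 68 nt. How evenly the spin columns kept RNA this short was not tested. Array differences in that step cannot be told apart from differences between the cells.

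Transcripts of the translation machinery are known to begin with a stretch of pyrimidines, through which their translation follows growth signals, and several snoRNA host genes share it. Start sequences of 6 hosts are shown because the members described below for 4OHT, for Shld1 and for the widest gap between replicates lie in them. Each runs 5′ to 3′ on the transcribed strand from 30 bases before the start to 20 bases from it onward (RefSeq, GRCm38.p6), and capitals mark the unbroken run of C and T that includes the first transcribed base, where it reaches 5 bases. The hosts are 2410006H16Rik (Snord49a and Snord49b; chr11:62602847-62602896, plus strand), Snhg12 (Snora16a and Snora44; chr4:132308648-132308697, plus strand), Rplp2 (Snora52; chr7:141447621-141447670, plus strand), Rpsa (Snora62; chr9:120127736-120127785, plus strand), Rps3 (Snord15a and Snord15b; chr7:99483690-99483739, minus strand) and Wdr43 (Snord53; chr17:71616185-71616234, plus strand).
2410006H16Rik: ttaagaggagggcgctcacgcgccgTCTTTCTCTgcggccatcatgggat
Snhg12: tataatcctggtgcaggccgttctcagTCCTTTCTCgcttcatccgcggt
Rplp2: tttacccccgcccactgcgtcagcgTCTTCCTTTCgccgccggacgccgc
Rpsa: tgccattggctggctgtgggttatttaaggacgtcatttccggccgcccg
Rps3: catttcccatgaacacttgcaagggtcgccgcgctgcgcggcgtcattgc
Wdr43: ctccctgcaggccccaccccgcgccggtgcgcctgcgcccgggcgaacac

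Runs of 5 or more pyrimidines over the start were present in 2410006H16Rik, Snhg12 and Rplp2 and not in the annotated start windows of Rpsa, Rps3 and Wdr43. Of the hosts, 30 had a start window in the RefSeq promoter table, and 11 of these (36.7%) held such a run, against 3191 of all 27025 genes with a window (11.8%). Among the Rpl and Rps hosts it was 3 of 11. Where a gene had several windows, the one with the longest run was used, for hosts and for all genes alike. A run could lie mainly before the start: in Tcp1 and Rpl39 it held 4 bases before the start and 1 from it onward. The count depends on the exact base annotated as the start, and it is a description of letters.

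The arrays resembled stem cells by their markers: all 6 stem cell genes (Pou5f1, Nanog, Sox2, Zfp42, Esrrb and Klf4) lay above background, with mean log2 signals from 7.28 to 10.87. Background was set at 3.73, the 95th percentile of the mean log2 signal of 1015 olfactory receptor genes. Fibroblast (4 of 4), endoderm (3 of 3), neural (2 of 2) and mesoderm markers (1 of 1, Mixl1) were also above it at lower means, and the trophoblast markers (0 of 2) were not. The mean over the 4 fibroblast markers was 4.92 in 4OHT-treated, 4.77 in Shld1-treated and 4.86 in untreated cells. In bulk RNA, fewer cells of a type and less RNA per cell cannot be told apart. The SD of the log2 signal over all probe sets was smaller for 4OHT replicate 1 (2.29) and Shld1 replicate 2 (2.24) than for the other 4 arrays (2.33 to 2.35). Counts and medians of the snoRNA classes, counts of the host comparison and medians of the gene lists are therefore also given by array below. Of the 51 snoRNA genes, 48 had a mean above background (94.1%), against 64.3% of all genes, and the 3 below it were Snora2b, Snord58b and Snord61. The probe sets do not separate a finished snoRNA from unspliced host intron, and near-identical copies (names ending in a and b) may share signal.

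Several members had a narrow range of signal over the 6 arrays. Snora73a and Snora73b, the copies of U17 in the host Snhg3, had log2 signals of 10.99 and 11.08 and of 10.35 and 10.37 with 4OHT, of 11.08 and 10.76 and of 10.37 and 10.18 with Shld1, and of 11.14 and 11.15 and of 10.47 and 10.44 in untreated cells. Snord104, a C/D methylation guide, had 9.90 and 10.12 with 4OHT, 10.23 and 10.11 with Shld1, and 10.04 and 10.27 in untreated cells. Snord47, one of the C/D guides in the introns of Gas5, had 7.65 and 7.95 with 4OHT, 7.93 and 8.09 with Shld1, and 7.89 and 7.91 in untreated cells. The widest of these 4 was Snord47, whose arrays spanned 0.43 on the log2 scale. Within these ranges the groups could still separate. All 4OHT and Shld1 arrays of Snora73a and Snora73b lay below both untreated arrays. Both Shld1 arrays of Snord47 lay above both untreated arrays, and these genes enter the counts below. Because probe sets differ in how brightly they read the same amount of RNA, levels are not compared between genes here.

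**Figure D1:**
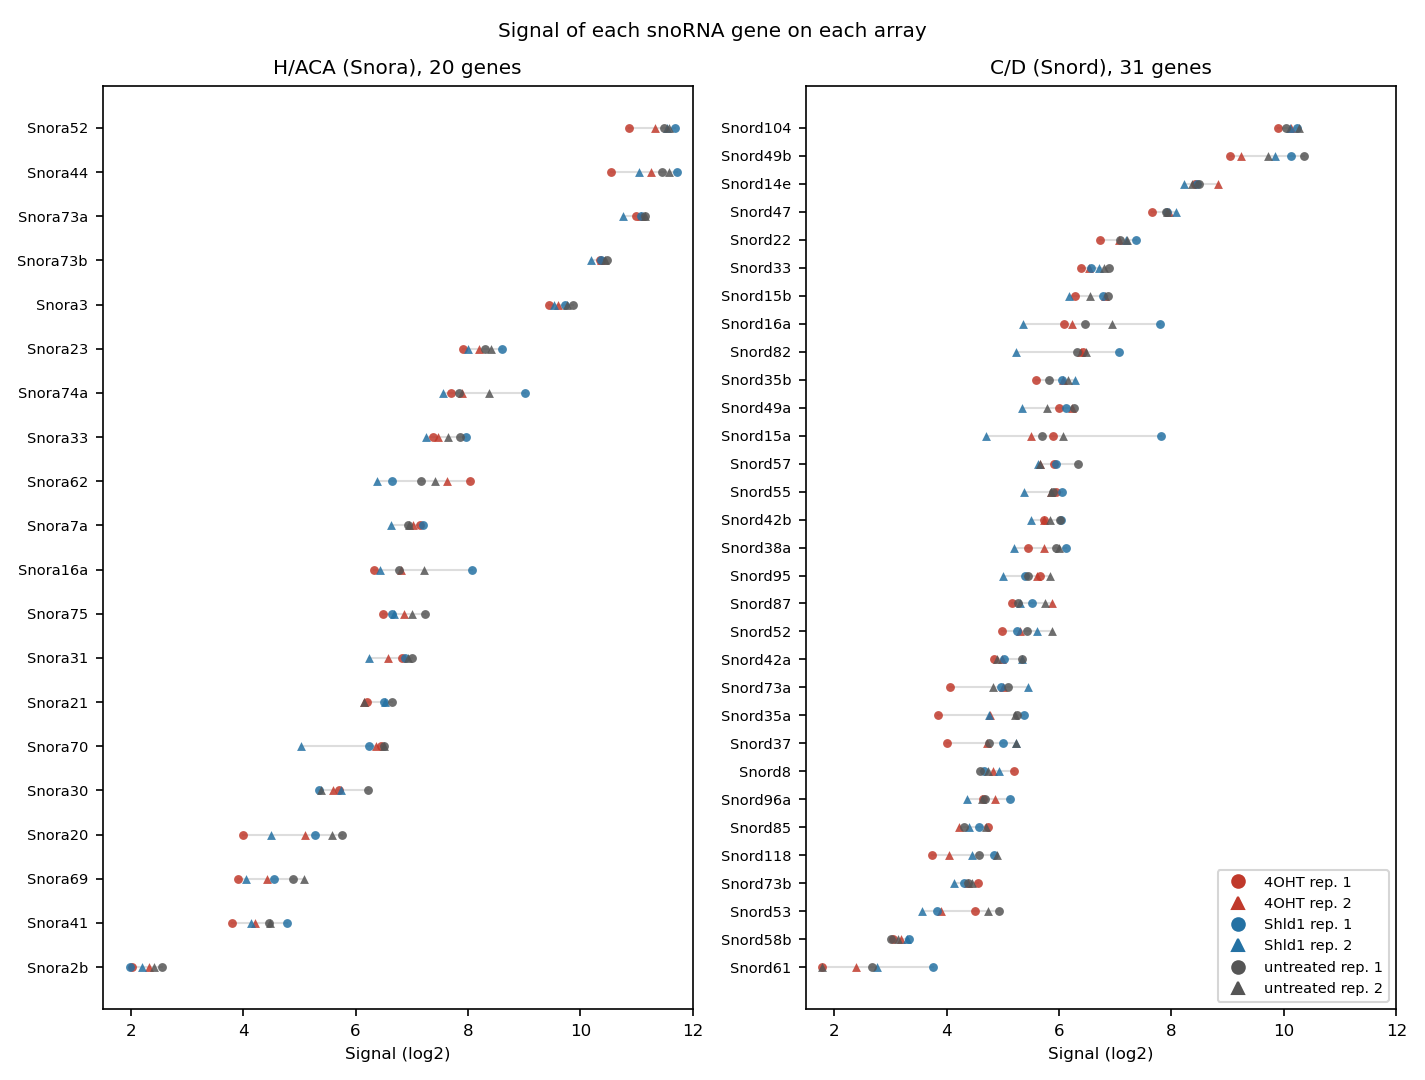
Log2 signal of each snoRNA gene (rows) on each of the 6 arrays (points; red 4OHT, blue Shld1, grey untreated; circles replicate 1, triangles replicate 2), with Snora genes on the left and Snord genes on the right, each sorted by mean. Red points often lie to the left of grey ones, and the widest rows (Snord15a, Snord16a, Snord82, Snora16a) are stretched by the 2 Shld1 arrays.

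The classes were set side by side on each array. The median log2 signal of the Snora genes was 6.99 and 6.94 with 4OHT, 7.04 and 6.58 with Shld1, and 7.09 and 7.11 in untreated cells. For the Snord genes it was 5.59 and 5.67 with 4OHT, 5.94 and 5.34 with Shld1, and 5.70 and 5.84 in untreated cells. Shld1 replicate 2 had the lowest median of both classes. The Snora median minus the Snord median, which carries the difference between probe sets and is read only across arrays, was 1.40 and 1.27 with 4OHT, 1.10 and 1.23 with Shld1, and 1.38 and 1.27 in untreated cells. As deposited, both Shld1 arrays were below the other 4, but after quantile normalization Shld1 replicate 2 had a gap of 1.26, against 1.25 for untreated replicate 2, so that only Shld1 replicate 1 (1.09) was below all others.

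With 4OHT, most snoRNAs of both types had lower signals than in untreated cells, and no single one passed the test. The difference (4OHT minus untreated, log2) was negative for 18 of 20 Snora genes, with a median of -0.30, and for 22 of 31 Snord genes, with a median of -0.16. Over all genes it was negative for 52.2%, with a median of -0.01, and over the 12815 genes above background it was negative for 58.7%, with a median of -0.04. Both 4OHT arrays lay below both untreated arrays for 14 Snora and 11 Snord genes, 25 of the 51, against 20.4% of all genes. Among genes above background this share was 24.8%. Both lay above for 3 of the 51 (Snora62, Snora7a and Snord8), against 17.3% of all genes and 14.4% of those above background. Per array, the median difference from the untreated mean was -0.40 and -0.21 for the Snora genes and -0.28 and -0.05 for the Snord genes. Thus 4OHT replicate 1 was the lower array for both classes. Below the untreated mean on 4OHT replicates 1 and 2 were 18 and 18 of the 20 Snora genes. Of the 31 Snord genes it was 24 and 20.

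**Figure D2:**
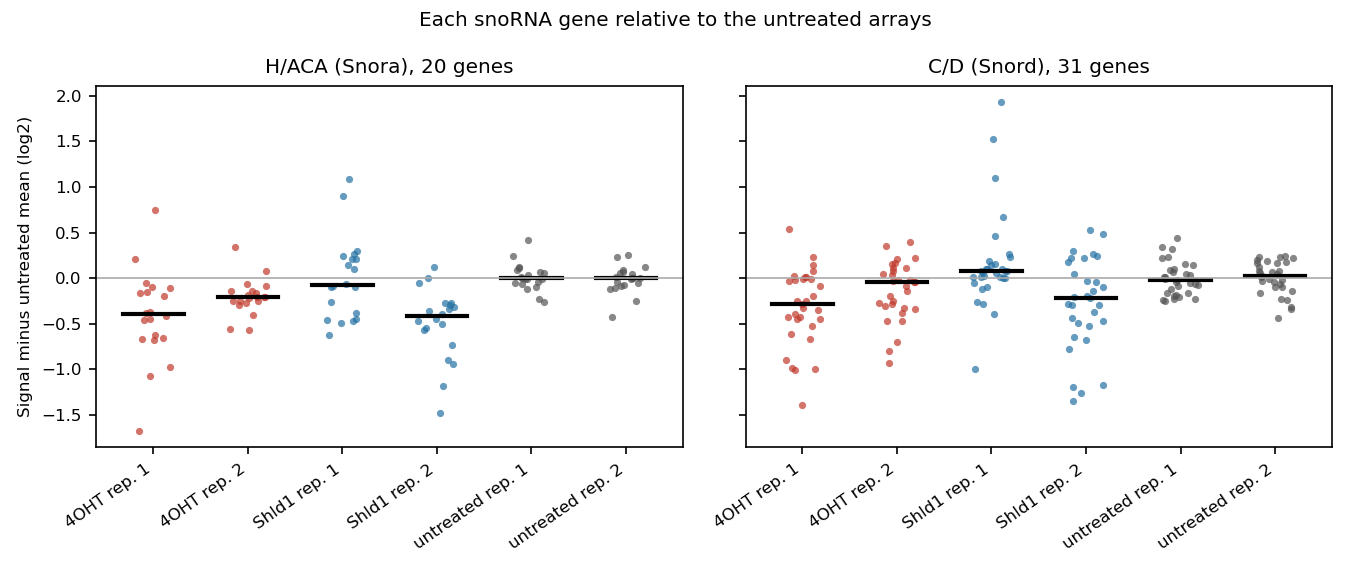
Log2 signal minus the mean of the 2 untreated arrays for each of the 20 Snora (left) and 31 Snord genes (right) on each array; points are genes and black lines medians. Both 4OHT arrays have medians below 0 in both classes, at -0.40 and -0.21 (Snora) and at -0.28 and -0.05 (Snord), whereas the Shld1 arrays part, with Snord medians of 0.07 and -0.21.

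In limma's test with Benjamini-Hochberg adjustment over the 19938 genes, 0 of the 51 members passed an adjusted p of 0.05 for 4OHT against untreated, and 0% of all genes did. The lowest adjusted p of a member was 0.96. At an unadjusted p under 0.05 there were 13 members, 12 of them lower and 1 higher with 4OHT, against 4.99% of all genes in either direction and 2.42% in the lower one. Without 4OHT replicate 1 the 13 became 3, without untreated replicate 1 they became 7, and the Snord median became -0.05 without 4OHT replicate 1 and -0.28 without 4OHT replicate 2. The negative differences stayed in the majority, at 38 to 42 of the 51, when any 1 array was left out.

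Among C/D snoRNAs, the largest statistic for 4OHT was that of Snord118 (U8), which is known from frog and human cells as needed for maturation of the large-subunit ribosomal RNAs. Its log2 signal was 3.74 and 4.04 with 4OHT, against 4.57 and 4.90 in untreated cells, and the 4OHT arrays were the lowest of the 6. The difference was -0.85 (SE 0.190, 95% interval -1.28 to -0.43, adjusted p = 0.96 in limma). With 3.74, 4OHT replicate 1 sat at the background level of 3.73. Its 2 probe sets held identical values and count once.

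Snord49b, a methylation guide in the noncoding host 2410006H16Rik shown above, had log2 signals of 9.04 and 9.25 with 4OHT, against 10.35 and 9.72 in untreated cells. The 4OHT arrays did not overlap the untreated ones, and the difference was -0.89 (SE 0.211, adjusted p = 0.96 in limma). Snord49a, in the same host, had 6.005 and 6.24 with 4OHT, against 6.26 and 5.79 in untreated cells, with overlapping groups. Snord35a, a guide in the ribosomal protein gene Rpl13a whose intronic snoRNAs are known from rodent cells for a role in the response to fatty acid stress, had 3.84 and 4.77 with 4OHT, against 5.24 and 5.22 in untreated cells. Its difference was -0.93 (SE 0.286, adjusted p = 0.96 in limma). Snord33, in the same host, had 6.40 and 6.54 with 4OHT, against 6.90 and 6.80 in untreated cells, again with both 4OHT arrays lower.

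Among H/ACA snoRNAs, Snora20, in the chaperonin gene Tcp1, had the largest difference of all members with 4OHT. Its log2 signal was 4.00 and 5.11 with 4OHT, against 5.76 and 5.58 in untreated cells, a difference of -1.12 (SE 0.339, adjusted p = 0.96 in limma). The 4OHT arrays themselves lay 2.16-fold apart. Snora69, in Rpl39, had 3.92 and 4.43 with 4OHT, against 4.89 and 5.08 in untreated cells, a difference of -0.82 (SE 0.214, adjusted p = 0.96 in limma). Snora52 in Rplp2 and Snora44 in Snhg12 read 10.86 and 11.34 and 10.54 and 11.26 with 4OHT, against 11.50 and 11.58 and 11.44 and 11.58 in untreated cells. For both genes 4OHT replicate 1 was the lowest of the 6 arrays.

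A few members had positive differences. Snora62 (E2), an H/ACA guide in the ribosomal protein gene Rpsa, had log2 signals of 8.04 and 7.62 with 4OHT, against 7.16 and 7.41 in untreated cells. The 4OHT arrays were the highest of the 6, with a difference of 0.55 (SE 0.184, adjusted p = 0.96 in limma). Snord8 had 5.20 and 4.82 with 4OHT, against 4.59 and 4.74 in untreated cells, a difference of 0.34 (SE 0.174). Snora7a, Snord14e and Snord96a had differences of 0.15, 0.19 and 0.10. Snord14e is a copy of U14, which takes part in forming the small-subunit RNA, and its signals of 8.42 and 8.83 with 4OHT overlapped those of 8.50 and 8.37 in untreated cells.

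The other 14 Snora genes had 4OHT differences from -0.47 (Snora41) to -0.09 (Snora73b), all below 0. Of the other 23 Snord genes, 18 had negative differences, down to -0.63 (Snord37), and 5 had positive ones, up to 0.05 (Snord73b). Snord22 (U22), known from frog cells for its part in forming the small-subunit RNA, had 6.72 and 7.06 with 4OHT, against 7.09 and 7.202 in untreated cells, with both 4OHT arrays lower.

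With Shld1, most snoRNAs were lower than in untreated cells on replicate 2, and most Snord genes were not lower on replicate 1. Again no member passed the test. The difference (Shld1 minus untreated, log2) was negative for 16 of 20 Snora genes, with a median of -0.19, and for 19 of 31 Snord genes, with a median of -0.10. Over all genes it was negative for 51.1%, with a median of -0.0043. Over the 12815 genes above background it was negative for 58.1%, with a median of -0.03, and the Snord share of 61.3% was near that. Both Shld1 arrays lay below both untreated arrays for 10 Snora (50%) and 4 Snord genes (12.9%), 14 of the 51, against 17.3% of all genes. The Snord share was thus under that of all genes, and under the 20.7% of genes above background. Both lay above for 0 Snora and 3 Snord genes, against 15.2% of all genes and 12.7% of those above background. Of these 3, Snord58b and Snord61 had means below background. Relative to the untreated mean, the median Snora difference was -0.08 on Shld1 replicate 1 and -0.42 on Shld1 replicate 2. The median Snord difference was 0.07 and -0.21 on these arrays. Below the untreated mean were 11 and 18 of the 20 Snora genes and 8 and 22 of the 31 Snord genes. The Shld1 arrays thus pointed in opposite directions for the Snord genes.

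The direction of the class with Shld1 thus rested on Shld1 replicate 2. Without it, 19 of the 51 members were lower than in untreated cells, the Snora median was -0.08 and the Snord median 0.07. Without Shld1 replicate 1, 40 of the 51 were lower and the medians were -0.42 and -0.21. The Snord median was also 0.01 without untreated replicate 2. Shld1 replicate 2 was the array with the smallest SD of all signals, and the part of that narrower range in the result was not tested.

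In limma's test 0 of the 51 members passed an adjusted p of 0.05 for Shld1 against untreated, where 0% of all genes passed, and the lowest adjusted p of a member was 0.999. At an unadjusted p under 0.05 there were 9 members, 8 lower and 1 higher with Shld1. Over all genes it was 4.34%, and 1.94% in the lower direction. Of the 9 members, 7 had means above background, all of them lower with Shld1. The 9 became 18 without Shld1 replicate 1.

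Snord53, a C/D guide in the ribosome assembly gene Wdr43, had the largest statistic with Shld1. Its log2 signal was 3.83 and 3.57 with Shld1, against 4.93 and 4.73 in untreated cells, so the Shld1 arrays were the lowest of the 6. Shld1 replicate 2 and the mean of the Shld1 arrays (3.70) lay below the background level, so the size of the fitted difference of -1.13 (adjusted p = 0.999 in limma) is limited by background. Snord61, in Rbmx, had the most positive difference, 1.03 (SE 0.357), but its mean over all arrays lay below background and its signals were 3.75 and 2.76 with Shld1, against 2.67 and 1.79 in untreated cells.

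Of the H/ACA members, Snora62 had log2 signals of 6.66 and 6.39 with Shld1, against 7.16 and 7.41 in untreated cells. The groups did not overlap, and the difference was -0.76 (SE 0.184, adjusted p = 0.999 in limma). Snora70, a guide in Rpl10, had 6.24 and 5.03 with Shld1, against 6.51 and 6.51 in untreated cells. Its difference of -0.87 (SE 0.307) came mostly from Shld1 replicate 2. Snora69 had 4.54 and 4.05 with Shld1, against 4.89 and 5.08 in untreated cells (difference -0.69, SE 0.214), and Snora75, a guide in the nucleolin gene Ncl, had 6.65 and 6.68 with Shld1, against 7.24 and 7.0003 in untreated cells (difference -0.46, SE 0.168). Snord118, with 4.84 and 4.46 with Shld1, against 4.57 and 4.90 in untreated cells, overlapped and differed by -0.09 (95% interval -0.51 to 0.33). Over all members the Shld1 differences ran from -0.87 (Snora70) to 0.26 (Snora16a) for Snora and from -1.13 (Snord53) to 1.03 (Snord61) for Snord genes.

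**Figure D3:**
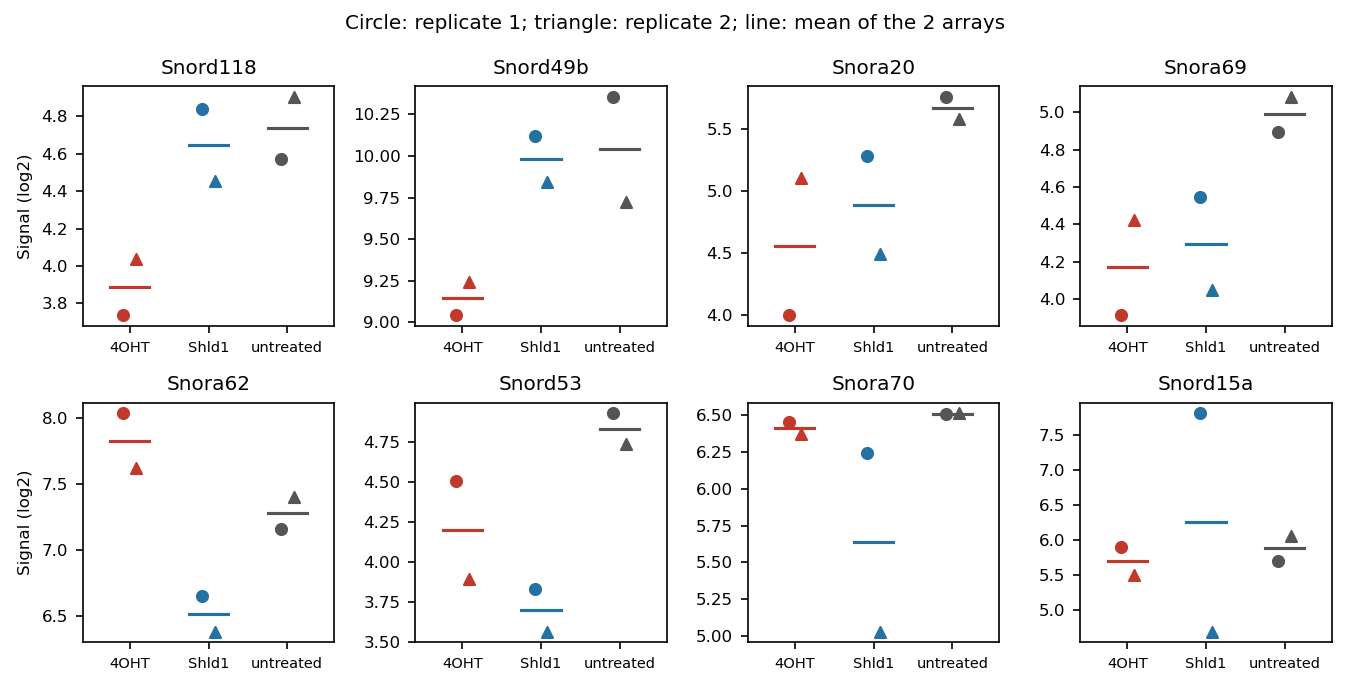
Log2 signal per array for 8 snoRNAs, with 4OHT (red), Shld1 (blue) and untreated (grey) from left to right in each panel; circles are replicate 1, triangles replicate 2 and lines group means, and each panel has its own axis. Snord118 and Snord49b are lowest on the 4OHT arrays, Snora62 is highest with 4OHT and lowest with Shld1, and the 2 Shld1 arrays of Snord15a lie above and below all others.

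The agents were also set against each other. This comparison shares its arrays with those above and is no independent evidence. The difference (4OHT minus Shld1, log2) was negative for 11 of 20 Snora genes, with a median of -0.11, and for 19 of 31 Snord genes, with a median of -0.16, against 50.9% of all genes. Both 4OHT arrays lay below both Shld1 arrays for 10 members, against 15.6% of all genes, and above them for 5, against 14.9%. In limma's test 0 of the 51 passed an adjusted p of 0.05 (0% of all genes), and 12 had an unadjusted p under 0.05, against 5.6% of all genes; 8 of the 12 were lower with 4OHT, against 3.1% of all genes. The 12 became 4 without 4OHT replicate 1. Both class medians turned positive without Shld1 replicate 1 (0.09 and 0.08), and the Snora median also without 4OHT replicate 1 (0.03).

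Snora62 separated the agents most clearly. It had log2 signals of 8.04 and 7.62 with 4OHT, against 6.66 and 6.39 with Shld1, a difference of 1.31 (SE 0.184, 95% interval 0.90 to 1.72), which was the largest positive one of all 19938 genes. The adjusted p was 0.37 in limma, and it was 0.0304 when the spread was moderated with an intensity trend. Snord49b (9.04 and 9.25 with 4OHT, 10.12 and 9.84 with Shld1) and Snord118 (3.74 and 4.04 with 4OHT, 4.84 and 4.46 with Shld1) had differences of -0.84 (SE 0.211) and -0.76 (SE 0.190), and Snord37, in the elongation factor gene Eef2, had -0.76 (SE 0.242). None of these 3 passed the test.

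The snoRNAs varied more between replicates than genes in general, with the widest spread with Shld1. The SD over the 51 members of the log2 difference between replicates 1 and 2 was 0.372 with 4OHT, 0.694 with Shld1 and 0.339 in untreated cells, against 0.264, 0.318 and 0.216 over all genes in the same 3 groups. By class it was 0.357 (4OHT), 0.524 (Shld1) and 0.301 (untreated) for Snora and 0.387 (4OHT), 0.792 (Shld1) and 0.366 (untreated) for Snord. Over 17 other small structural RNAs it was 0.336 (4OHT), 0.349 (Shld1) and 0.192 (untreated). Over 300 microRNA precursors it was 0.318, 0.355 and 0.301 in the same order. With 4OHT and in untreated cells the snoRNA spread was thus close to that of the microRNA precursors. More than 2-fold between replicates were 1 member with 4OHT, 6 with Shld1 and 0 in untreated cells, against 30, 108 and 10 of all 19938 genes. Shld1 replicate 1 was above replicate 2 for 39 of the 51.

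The 6 wide members with Shld1 had between-replicate ratios from 2.32 to 8.67. Snord15a, a C/D methylation guide (U15) in the ribosomal protein gene Rps3, had log2 signals of 7.81 and 4.69 with Shld1, against 5.70 and 6.06 in untreated cells, so that 1 Shld1 array lay above and the other below all other arrays. Its neighbour Snord15b in the same host had 6.78 and 6.18 with Shld1, against 6.87 and 6.55 in untreated cells. Snord16a (U16), a guide in Rpl4, had 7.80 and 5.36 with Shld1, against 6.46 and 6.94 in untreated cells. Snord82, in Ncl, had 7.07 and 5.23 with Shld1, against 6.32 and 6.48 in untreated cells, and Snora75 in the same host did not share the gap. Snora16a in Snhg12 (8.08 and 6.43 with Shld1, 6.77 and 7.23 in untreated cells) and Snora74a (U19) in Snhg4 (9.01 and 7.56 with Shld1, 7.85 and 8.37 in untreated cells) had Shld1 replicate 1 highest of all arrays, whereas Snora70 had Shld1 replicate 2 lowest. For these genes the mean of the Shld1 group describes neither array.

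**Figure D4:**
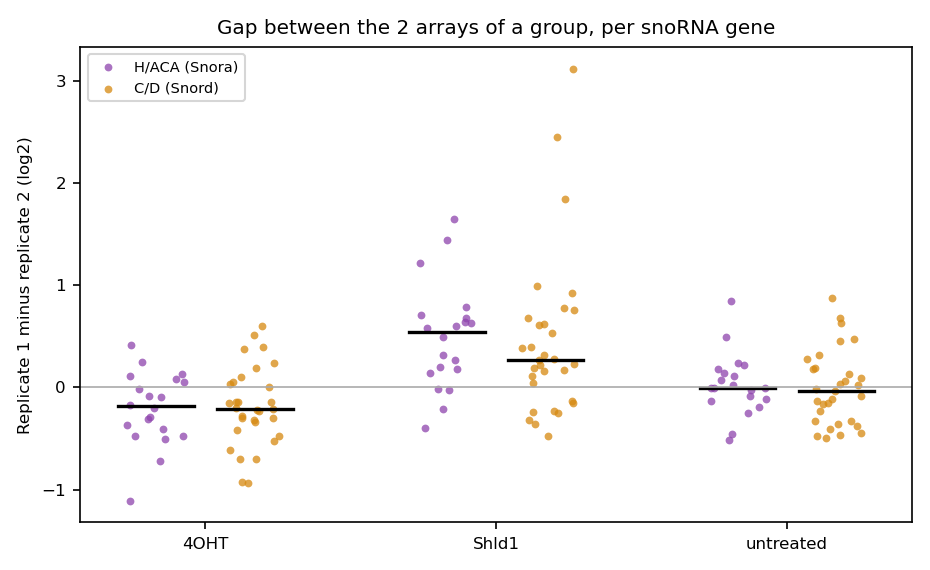
Log2 difference between replicate 1 and replicate 2 of each group (4OHT, Shld1 and untreated from left to right) for Snora (purple) and Snord genes (orange); points are genes and black lines medians. The Shld1 gaps reach 3.12 (Snord15a) and their medians are 0.54 (Snora) and 0.26 (Snord), whereas the medians lie at -0.19 and -0.21 with 4OHT and near 0 in untreated cells.

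The width of these gaps sets what could be seen. The median SE of a member's log2 difference was 0.206, against 0.160 over all genes. For 38 of the 51 members (74.5%) the 95% interval of the 4OHT difference lay within a 2-fold change in either direction, as it did for 40 members with Shld1; over all genes it was 98.8% and 98.7%. For the remaining members a change of 2-fold was not excluded at this number of arrays.

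Host genes were compared with the snoRNAs in them where both had probe sets, which gave 27 members in 23 hosts. With 4OHT the snoRNA's difference was below that of its host for 23 of the 27. The median snoRNA difference was -0.22, and the median over hosts was 0.01, with hosts from -0.32 (Rbmx) to 0.10 (Rplp2). With Shld1 the snoRNA was below its host for 17 of the 27, with medians of -0.17 over snoRNAs and -0.05 over hosts. Array by array, a check chosen after seeing the data, the snoRNA was below its host for 21 and 20 of the 27 on the 4OHT arrays and for 11 and 19 on the Shld1 arrays, so the majority with Shld1 rested on Shld1 replicate 2. The median snoRNA difference was -0.33 and -0.20 on the 4OHT arrays and 0.01 and -0.36 on the Shld1 arrays. The snoRNA differences were spread more widely than those of the hosts, with SDs of 0.301 against 0.110 with 4OHT and of 0.423 against 0.0821 with Shld1, and 0 hosts had an unadjusted p under 0.05 for either agent. Snora62 and its host Rpsa, and Snora20 and its host Tcp1, show this gap: the snoRNAs differed with 4OHT by 0.55 and -1.12, and the hosts by -0.01 and -0.14. Mean log2 signals of the hosts ran from 4.58 (Rbmx) to 13.06 (Rpsa), and the part of signal level in these spreads was not tested. The Shld1 spread of the snoRNAs includes Snord61, whose mean lay below background. Gas5 was the only long noncoding host measured, although 13 of all members lay in such hosts.

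Members of the same host were compared in pairs. Of the 10 hosts that hold a pair of members, 5 had both members on the same side of 0 with 4OHT, and 5 with Shld1. Most of the 51 members were negative (78.4% with 4OHT and 68.6% with Shld1), so unrelated members often share a side too. The widest pair with 4OHT was Snord49a and Snord49b, with log2 differences of 0.10 and -0.89. The closest were Snord42a and Snord42b in Rpl23a, with -0.21 and -0.20, and Snora73a and Snora73b in Snhg3, with -0.11 and -0.09. The median gap within a pair was 0.31 with 4OHT and 0.23 with Shld1. Paralogs in a pair can share signal on the array, so close pairs are not independent.

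**Figure D5:**
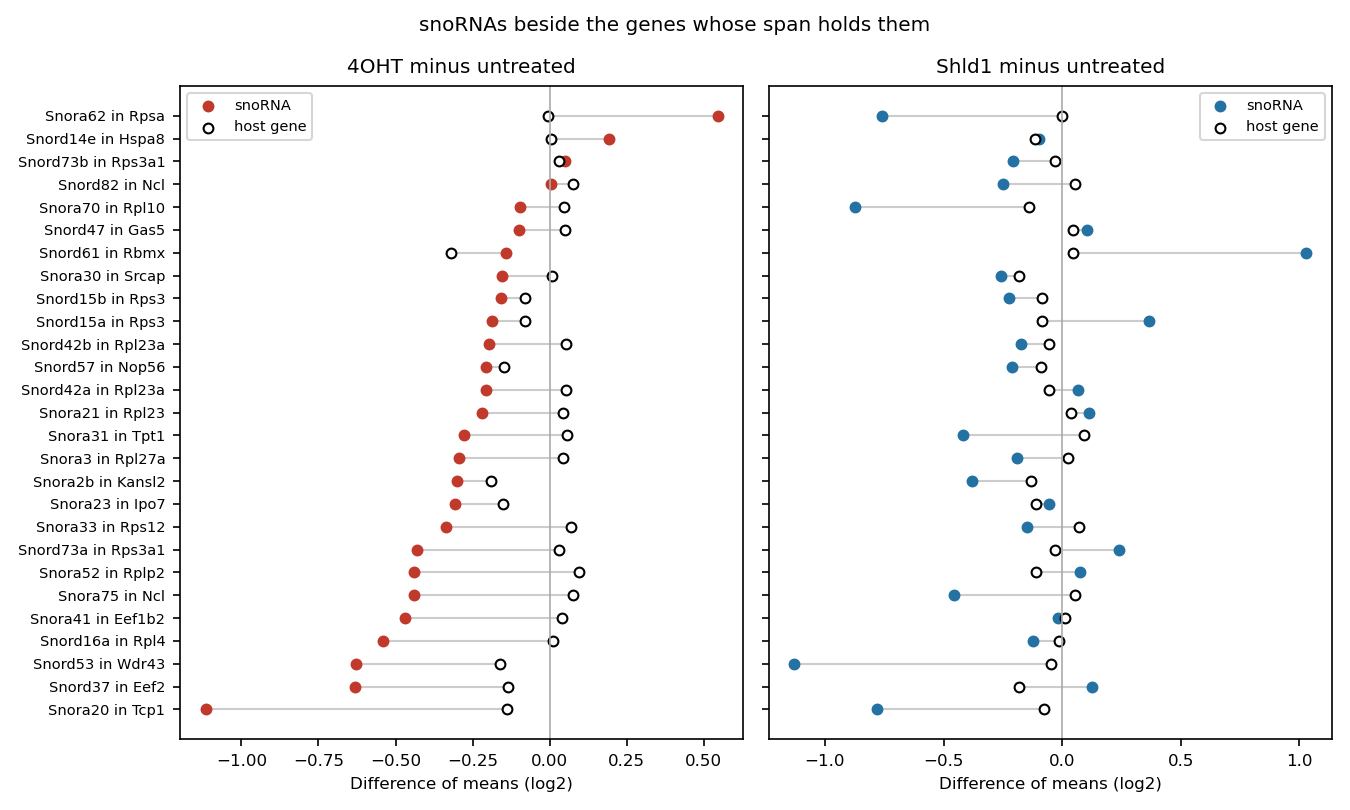
Log2 difference from untreated cells of 27 snoRNAs (filled points) and of the host genes that contain them (open points), for 4OHT (left) and Shld1 (right), in the same row order. The snoRNAs range from -1.12 to 0.55 with 4OHT and from -1.13 to 1.03 with Shld1, while host genes stay between -0.32 and 0.10 with 4OHT and between -0.18 and 0.09 with Shld1. The value of 1.03 is that of Snord61, whose mean lay below background.

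The proteins that carry snoRNAs showed small differences. Of the C/D core genes Fbl, Nop56, Nop58 and Snu13, 4 of 4 had negative log2 differences with each agent, with medians of -0.10 for 4OHT and -0.13 for Shld1. By array, 4 and 2 of the 4 were below the untreated mean with 4OHT (medians -0.15 and -0.003) and 4 and 3 with Shld1 (medians -0.07 and -0.23). The largest were those of Nop56 with 4OHT (-0.15, SE 0.156) and Nop58 with Shld1 (-0.21, SE 0.144). Of the H/ACA core genes Dkc1, Nop10, Nhp2 and Gar1, 3 of 4 were negative with 4OHT and 4 of 4 with Shld1, with medians of -0.05 and -0.06, and by array the medians were -0.05 and -0.0092 with 4OHT and -0.05 and -0.10 with Shld1. None of the 8 had an unadjusted p under 0.05. Up to 3 genes of each list per comparison were followed through the alternatives. Among those followed against untreated cells, the signs of Fbl, Dkc1, Nhp2, Snu13 and Nop10 turned under at least 1 alternative setting or left-out array. Nop56 was not followed with Shld1, where replicate 2 (9.55) lay between the untreated arrays (9.57 and 9.48).

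Genes that build and trim snoRNAs also had small differences. Of 10 genes that assemble snoRNA-protein particles, such as Ruvbl1, Nufip1 and Rpap3, 8 were negative with each agent (medians -0.16 with 4OHT and -0.11 with Shld1), and of 17 genes of processing and decay, such as the debranching enzyme Dbr1 and the exosome subunits, 14 were negative with 4OHT and 13 with Shld1 (medians -0.12 and -0.14). Exosc4, an exosome subunit, had the largest statistic of these with 4OHT, with log2 signals of 6.09 and 6.07 with 4OHT, against 6.43 and 6.43 in untreated cells (difference -0.35, SE 0.156). Of 10 genes of U3 partners and ribosome assembly, 8 were negative with 4OHT and 4 with Shld1 (medians -0.12 and 0.01), and of 8 genes of RNA polymerase I transcription 6 and 7 (medians -0.11 and -0.07). Of the 3 Cajal body genes Coil, Wrap53 and Smn1, 2 were negative with each agent. In these lists 0 genes passed an adjusted p of 0.05 and 0 had an unadjusted p under 0.05 for either agent. Among genes above background 58.7% were negative with 4OHT and 58.1% with Shld1, with medians of -0.04 and -0.03.

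These list medians differed between the arrays of a group. For the assembly genes they were -0.28 and -0.05 on the 4OHT arrays, and 0.05 (3 of 10 below the untreated mean) and -0.25 (8 of 10 below) on the Shld1 arrays, so that the direction with Shld1 turned with the array. For processing and decay they were -0.21 and -0.03 with 4OHT and -0.06 and -0.18 with Shld1, and for RNA polymerase I -0.15 and -0.03 with 4OHT and -0.07 and -0.05 with Shld1. For U3 partners and ribosome assembly they were -0.18 and -0.07 with 4OHT and -0.05 and -0.02 with Shld1, where the median of the means of both arrays was 0.01. For the Cajal body genes they were -0.26 and -0.03 with 4OHT and -4e-04 and -0.22 with Shld1. In each of these lists 4OHT replicate 1, an array of narrower range, was the lower one, and over all genes above background the medians were -0.07 and -0.0068 on the 4OHT arrays and 0.01 and -0.08 on the Shld1 arrays. The part of the narrower range in these values was not tested.

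Noncoding host transcripts and other small RNAs were read as neighbours of the class. Of 6 Snhg and Gas5 transcripts, 5 were negative with 4OHT (median -0.31, and -0.32 and -0.26 by array). With Shld1, 3 were negative (median -0.03, and -0.10 and -0.16 by array), and 0 passed the test with either agent. Snhg16 had log2 signals of 5.52 and 5.97 with 4OHT, against 6.13 and 6.25 in untreated cells. Of 17 other small structural RNAs, 14 were negative with 4OHT (median -0.25) and 6 with Shld1 (median 0.11), and 0 passed. By array the medians were -0.25 and -0.19 with 4OHT, and 0.29 (4 of 17 below the untreated mean) and -0.10 (10 of 17 below) with Shld1, so the direction with Shld1 turned with the array. The C/D snoRNA U3 (Rnu3a), needed for the first cleavages of the ribosomal RNA precursor, carries another symbol and is no member. It had log2 signals of 9.02 and 9.71 with 4OHT, 10.21 and 9.44 with Shld1, and 10.29 and 10.25 in untreated cells, with the 4OHT difference at -0.91 (SE 0.270, adjusted p = 0.96 in limma). The 300 microRNA precursors had medians of 0.03 with 4OHT (0.06 and -0.003 by array) and 0.05 with Shld1 (-0.06 and 0.17 by array).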

How the data were processed

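Biotin-labelled total RNA of RW4 cells was measured on 6 arrays, 2 each for 4OHT, Shld1 and untreated. The deposited table holds 1 value per probe set and array on a log2 scale, as read from the values; the steps by which the authors corrected, summarized and normalized the signals are not given in the sources used here. Of tools, limma 3.14 is named by the submitters' processing notes, with no role. The number of arrays limits the precision.

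Of 35556 probe sets, 21789 carried 1 symbol in the platform annotation, 1621 carried several, which were left out, and the rest carried none in that table. By Entrez identifier, 21698 of the 21789 matched the RefSeq gene table (GRCm38.p6). The brightest probe set per gene was kept, which gave 19938 genes; 5 members had more than 1 probe set. All genes were fitted with limma 3.58.1 in R 4.3.3 on the deposited values, with a mean per group over the 6 arrays and empirical Bayes moderation without a trend (3 residual and 6.77 prior degrees of freedom). Tests were two-sided and adjusted by the Benjamini-Hochberg method over all genes, with a threshold of 0.05. With 2 arrays per group the smallest p of an exact permutation test is 0.333, so none was run. Simulated data for 4OHT against untreated (20 runs of 19938 genes, 200 changed) had the same spread for every gene, less than that of the snoRNAs. There the step recovered 29.8% of genes changed 1.5-fold and 95.5% of those changed 2-fold, with 6.95 false calls per run. Spreads differ between genes in the real data, so these shares do not say how many changed snoRNAs would be found. In the real data 4 genes differed by more than 2-fold for 4OHT against untreated, and 0 passed.

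Members and gene lists were chosen with earlier results of these data known, so classes are described by counts and medians with no test. Fitted differences with their errors are given for the 5 members with the highest and the 5 with the lowest moderated statistic per comparison and for Snord118, and for up to 3 genes per list. A host is the shortest protein-coding or long noncoding gene whose span contains the snoRNA; the gene table gives no strand, so strand was not used. Alternatives were an intensity trend, quantile normalization, each array centred on its 75th percentile, a fit without the 40% of genes that were dimmest, only the compared groups, a block for the replicate number, array weights, the mean of a gene's probe sets, each array left out, and 4OHT replicate 1 and Shld1 replicate 2 left out together; the host comparison on single treated arrays was added after seeing the data. Correlations between groups of the deviations of replicate 1 were 0.05 (4OHT and untreated), -0.079 (Shld1 and untreated) and -0.194 (4OHT and Shld1). They cannot settle whether arrays of the same replicate number shared a batch, since the steps of normalization are not known. The main fit assumed no pairing.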

Additional observations from a re-analysis of the deposited data

Results flagged for a closer look

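Among members with no overlap between the arrays, Snora62 was the one that lay on opposite sides of the untreated arrays with the 2 agents: with 4OHT both arrays exceeded the untreated ones (difference 0.55, SE 0.184) and with Shld1 both were lower (difference -0.76, SE 0.184). The difference between the agents was 1.31 on the log2 scale, with limma adjusted p = 0.37 over 19938 genes, and both 4OHT arrays were above both Shld1 arrays. Groups of 2 arrays were not tested for single outlying arrays.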

How the results depend on the processing

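The count of members past an adjusted p of 0.05 was 0 in each comparison and remained 0 under every alternative run, except that the intensity trend gave 1 call, Snora62, for 4OHT against Shld1 (adjusted p 0.0304). With the replicate number as a block the counts were 0, 0 and 0. The Snora median for 4OHT against untreated (-0.30) was -0.27 after quantile normalization, -0.26 after centring, -0.40 to -0.21 with 1 array left out and -0.21 without 4OHT replicate 1 and Shld1 replicate 2 together; the Snord median (-0.16) was -0.279 to -0.046 with 1 array left out and -0.046 without both. With 1 array left out, the medians for Shld1 against untreated were -0.42 to -0.08 (Snora) and -0.21 to 0.07 (Snord), and for 4OHT against Shld1 -0.26 to 0.09 and -0.25 to 0.08. With the 40% of genes that were dimmest left out, the Snora minus Snord median was 1.501 on 4OHT replicate 1 and 1.38 on untreated replicate 2. Single genes were followed through the alternatives only where their fitted difference was selected as described above. Among these, signs turned for the following genes. For 4OHT against untreated with 1 array left out, Snord14e ranged from -0.0137 to 0.40, Snord96a from -0.0044 to 0.21, Snu13 from -0.19 to 0.0183, Nop10 from -0.15 to 0.0137 and Polr1a from -0.28 to 0.0211; without both arrays Snu13 was 0.0183, Nop10 0.0073 and Polr1a 0.0211, and after centring Nhp2 was 0.0124. For Shld1 against untreated, Snord73a ranged from -4e-04 to 0.48 and Snord118 from -0.28 to 0.10, and without both arrays they were -4e-04 and 0.10; Fbl was 0.15 with the mean of its probe sets and Dkc1 0.0132 after quantile normalization. For 4OHT against Shld1, Nop58 ranged from -0.0091 to 0.19, Nop56 from -0.18 to 0.07, Nop10 from -0.16 to 0.0817, Naf1 from -0.0345 to 0.39, Polr1b from -0.0552 to 0.51 and Coil from -0.28 to 0.0104; without both arrays Nop58 was -0.0388, Nop56 0.18 and Naf1 -0.009, and Fbl was -0.17 with the mean of its probe sets. The cause of these shifts was not tested beyond which arrays were left out. Where 1 array of a group was left, it was assumed to vary like the other groups.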

Other observations

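Of the probe sets whose annotation named several symbols, 41 included a snoRNA and were therefore no members. The Snord116 group, a cluster of C/D snoRNAs in the imprinted Prader-Willi region known mainly from brain, made up 24 of them, with only 7 distinct rows of values. All 24 lay below background, with mean log2 signals from 2.91 to 3.34. The remaining 17 (15 distinct rows) named a snoRNA together with a host gene, a microRNA or another snoRNA, and 16 of them were above background. Their difference was negative for 14 of 17 with 4OHT (median -0.15) and for 10 of 17 with Shld1 (median -0.09). Over all genes it was 52.2% and 51.1%, and over genes above background 58.7% and 58.1%. The counts include identical copies, negative with both agents, of the rows for Snord1b with Snord1c and for Snora19 with microRNAs. The probe set shared by Snord32a and its host Rpl13a read 8.83 and 8.86 with 4OHT, 9.44 and 9.39 with Shld1, and 9.21 and 9.19 in untreated cells, lowest on the 4OHT arrays and highest on the Shld1 arrays. That of Snord14c, Snord14d and their host Hspa8 read 8.11 and 8.39 with 4OHT, 8.10 and 8.08 with Shld1, and 8.50 and 8.56 in untreated cells. Such probe sets may also read host RNA, and their signal cannot be divided between the snoRNA and the host.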
